A study of Mus musculus with 9 samples.

Results

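A group of 10 genes that mark the leptomeninges and other fibroblasts of the brain surface were followed in hypothalamus RNA of mice with and without *Clic1*. The genes were *Igf2*, *Igfbp2*, *Ptgds*, *Slc6a13*, *Slc22a6*, *Slc13a4*, *Dcn*, *Col1a1*, *Col1a2* and *Col3a1*, and all 10 of 10 were among the 14351 genes with values. They were chosen by name as meningeal and fibroblast genes with the normalized values of these libraries in view, KO against WT and library against library. Their levels and their spread are therefore given as a description, without a test. RNA was sequenced from the hypothalamus of male mice on normal chow, 1 library per mouse, with 5 libraries in the KO group (replicates 2, 4, 6, 8 and 10) and 4 in the WT group (replicates 1, 3, 9 and 11). The KO mice lack *Clic1* in the whole body and the WT mice were littermates. The labels name the strain C57b/6J, whereas the study's methods place the knockout on a CD-1 background. A treatment field of the labels names frozen perigonadal adipose tissue, whereas the tissue label and the methods name the hypothalamus. The age at dissection is not given for these mice. The sources used here do not say whether the coverings of the brain were removed from the tissue.

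One library carries 2 genotypes in its labels. Its title and treatment label read WT, and its column code reads K10. It was placed with the KO group by that code, and is called library 10 here. Group averages and differences of the 10 genes are also given without it, as are the differences named for other genes and the medians of the lists related to the 10 genes. *Clic1*, the targeted gene, was at 1.43 CPM (reads of a gene per 1e6 reads of the library, normalized by the authors) in library 10, while KO replicates 2, 4, 6 and 8 had 0.733 to 1.93 CPM and the WT libraries 3.58 to 5.52 CPM, so its level went against the WT label. KO mice averaged 1.33 ± 0.429 CPM (SD, n = 5) and WT mice 4.77 ± 0.868 CPM (SD, n = 4). The log2 difference, KO minus WT, was -1.80 with a standard error of 0.27, and the limma p was 0.0153 after adjustment over all genes by the Benjamini-Hochberg method, the adjustment used throughout. With library 10 as WT the adjusted p was 0.501, and it was 0.0893, 0.0826 and 0.0702 without WT replicates 1, 3 and 9. Leaving out library 10 gave a KO average of 1.31 ± 0.491 CPM (SD, n = 4) and a log2 difference of -1.84. Library 10 also stood apart across all genes, with a median Spearman correlation of 0.9743 with the other libraries, whereas the lowest value between any pair of the others was 0.9891. The files hold no read counts, and the steps between low values gave about 5.47 to 20.8 M reads per KO library and 7.29 to 11 M per WT library, with the most in library 10.

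The leptomeninges are the thin membranes, arachnoid and pia, that wrap the brain and follow its vessels inward. Their fibroblasts lay down fibrillar collagen, secrete growth factors into the cerebrospinal fluid, and in the arachnoid form a barrier that carries organic ions and metabolites between blood and fluid. *Igf2* encodes a growth factor of the insulin family that adult brain makes mainly in the meninges and choroid plexus, and *Igfbp2* a protein that binds it. *Ptgds* encodes the lipocalin-type synthase of prostaglandin D2, which is abundant in the meninges and is also made by oligodendrocytes. *Slc6a13* encodes the GABA transporter GAT2, *Slc22a6* the organic anion transporter OAT1, and *Slc13a4* a sodium-coupled sulfate transporter. *Dcn* encodes decorin, a proteoglycan that binds collagen fibrils, *Col1a1* and *Col1a2* the chains of type I collagen, and *Col3a1* the chain of type III collagen.

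The 3 transporter genes followed one another closely from library to library, as described further on, although none adjoins another in the genome. This was not particular to transporters. After group means were subtracted, Pearson's r with them was 0.95 to 0.98 for *Ptgds*, beside 0.96 to 0.98 among the 3. The promoter windows of the 3 transporter genes are shown as examples. Each runs from 250 bases before to 50 after the start site that lies farthest upstream in RefSeq (GRCm38.p6). The windows cover chr6:121300038-121300337 on the plus strand, chr19:8617746-8618045 on the plus strand and chr6:35308077-35308376 on the minus strand. Capitals mark the GC box (GGGCGG), the CCAAT box (CCAAT) and the TATA box (TATAAA), each searched on both strands.
Slc6a13: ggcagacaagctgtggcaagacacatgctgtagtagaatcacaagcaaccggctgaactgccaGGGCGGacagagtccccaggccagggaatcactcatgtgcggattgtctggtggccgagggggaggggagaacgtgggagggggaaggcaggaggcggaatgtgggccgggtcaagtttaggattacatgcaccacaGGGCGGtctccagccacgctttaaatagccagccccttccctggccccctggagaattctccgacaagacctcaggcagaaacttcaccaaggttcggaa
Slc22a6: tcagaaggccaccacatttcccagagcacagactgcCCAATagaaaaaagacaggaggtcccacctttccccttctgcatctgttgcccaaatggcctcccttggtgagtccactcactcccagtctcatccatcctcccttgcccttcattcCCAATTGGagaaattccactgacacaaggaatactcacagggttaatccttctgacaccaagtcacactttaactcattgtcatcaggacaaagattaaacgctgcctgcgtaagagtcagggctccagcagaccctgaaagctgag
Slc13a4: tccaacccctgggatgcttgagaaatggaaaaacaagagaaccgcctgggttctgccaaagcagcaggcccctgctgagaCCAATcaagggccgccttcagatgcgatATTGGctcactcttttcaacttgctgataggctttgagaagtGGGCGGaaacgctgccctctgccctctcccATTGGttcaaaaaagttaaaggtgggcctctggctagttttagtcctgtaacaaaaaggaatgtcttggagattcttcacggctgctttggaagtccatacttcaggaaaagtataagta
The *Slc6a13* window held 2 GC boxes and no CCAAT box. The *Slc22a6* window held 3 CCAAT boxes, 2 of which overlap on opposite strands, and no GC box. The *Slc13a4* window held 3 CCAAT boxes and 1 GC box, and no window of the 3 held a TATA box. Over 27025 windows of this length, 1 per gene, 35.9% held a GC box, 38% a CCAAT box and 14.2% a TATA box. The forkhead core (TGTTT) and the E-box (CANNTG) were searched as well and are not capitalized, and they occur in 50.8% and 72.1% of all windows. *Slc13a4* held 1 forkhead core and 1 E-box, *Slc22a6* 3 E-boxes and *Slc6a13* 2 E-boxes. A match describes the letters of the window and not a bound site.

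Levels of the 10 genes varied together from library to library. For each of them the range over KO libraries was wider than the difference between the group means. The range over WT libraries was narrower than that difference for *Col1a1* and *Col3a1*. In bulk tissue, fewer cells of a type and less RNA per cell cannot be told apart. *Slc13a4* was at 24.2, 33, 3.3, 51.6 and 6.97 CPM in KO replicates 2, 4, 6, 8 and library 10, and at 3.44, 3.94, 22.7 and 4.68 CPM in WT replicates 1, 3, 9 and 11. KO replicates 2, 4 and 8 and WT replicate 9 were high, the other 5 libraries were low, and the genotypes overlapped. *Slc13a4* spans chr6:35267957-35308131 on the minus strand of GRCm38 and averaged 23.8 ± 19.8 CPM (SD, n = 5) over KO mice, with 8.69 ± 9.35 CPM (SD, n = 4) over WT mice. Without library 10 the KO mean was 28 ± 20.1 CPM (SD, n = 4).

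*Slc22a6* (chr19:8618039-8628299, plus strand) was at 13.7, 9.23, 1.47, 21.6 and 1.83 CPM in KO replicates 2, 4, 6, 8 and library 10, and at 1.45, 2.38, 10.4 and 1.38 CPM in WT replicates 1, 3, 9 and 11. The same 4 libraries were high, between 9.23 and 21.6 CPM, and the other 5 lay between 1.38 and 2.38 CPM. The lowest value rests on about 10 reads. *Slc6a13* (chr6:121300227-121337733, plus strand) was at 12.6, 12, 3.11, 19.7 and 2.47 CPM in KO and at 2.35, 2.28, 9.7 and 2.2 CPM in WT libraries, in the same order. Again the 4 high libraries, at 9.7 CPM or more, were clear of the others, at 3.11 CPM or less. KO mice averaged 9.55 ± 8.46 CPM of *Slc22a6* (SD, n = 5) and WT mice 3.9 ± 4.36 CPM (SD, n = 4). For *Slc6a13* the averages were 9.98 ± 7.23 CPM (SD, n = 5) and 4.13 ± 3.71 CPM (SD, n = 4). Without library 10 the KO means became 11.5 ± 8.41 and 11.9 ± 6.8 CPM (SD, n = 4).

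**Figure D1:**
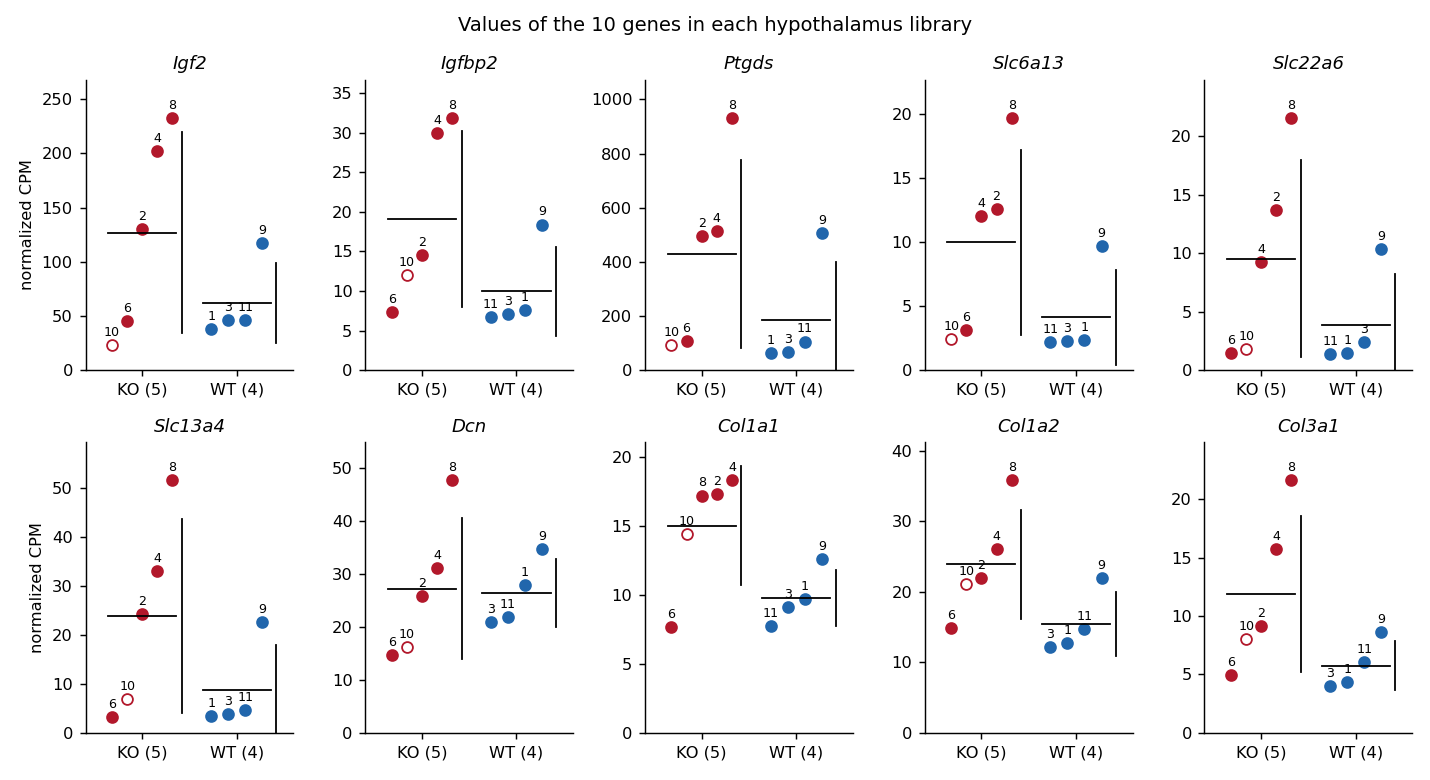
Normalized CPM of each of the 10 genes in every library, with KO libraries in red, WT libraries in blue, the replicate number above each point and library 10 as an open circle. Horizontal lines are group means and vertical lines the SD (cut at 0); in each panel KO and WT libraries overlap, and KO replicate 8 is the highest point in 9 of the 10 panels.

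*Ptgds*, by far the most abundant of the 10 genes, followed the same libraries. Its CPM was 496, 515, 107, 933 and 91.7 in KO replicates 2, 4, 6, 8 and library 10, and 61.9, 67.5, 506 and 106 in WT replicates 1, 3, 9 and 11. The 4 high libraries held at least 496 CPM and the other 5 at most 107 CPM. KO mice averaged 429 ± 348 CPM (SD, n = 5), or 513 ± 337 CPM (SD, n = 4) without library 10, and WT mice 185 ± 215 CPM (SD, n = 4). *Ptgds* lies at chr2:25466709-25470046 on the minus strand. Oligodendrocytes also make this enzyme, and the summed CPM of 9 oligodendrocyte markers, with *Mbp* and *Mobp* among the most abundant, ranged only from 3662 to 4781 over all libraries. WT replicate 11, with the highest oligodendrocyte sum, had 106 CPM of *Ptgds*, and KO replicate 8, with 933 CPM of *Ptgds*, had an oligodendrocyte sum of 4017 CPM.

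*Igf2* (chr7:142650766-142666816, minus strand) was at 130, 202, 45.1, 233 and 23.2 CPM in KO replicates 2, 4, 6, 8 and library 10, and at 37.6, 46.6, 117 and 46.7 CPM in WT replicates 1, 3, 9 and 11. The same 4 libraries were high, and library 10 had the lowest value of all 9. KO mice averaged 127 ± 92.8 CPM (SD, n = 5), or 153 ± 83.8 CPM (SD, n = 4) without library 10, and WT mice 62.1 ± 37.1 CPM (SD, n = 4). Exons of *Igf2* overlap those of the antisense gene Igf2os and of Gm49394 in the annotation, and whether the reads were counted by strand is not given in the sources used here. *Igfbp2* (chr1:72824503-72852474, plus strand), the binding protein, was at 14.6, 29.9, 7.33, 31.9 and 12 CPM in KO and at 7.6, 7.15, 18.4 and 6.75 CPM in WT libraries, in the same order. KO replicates 4 and 8 were highest and WT replicate 9 lay between them and the rest. KO mice averaged 19.1 ± 11.1 CPM (SD, n = 5), or 20.9 ± 11.9 CPM (SD, n = 4) without library 10, and WT mice 9.97 ± 5.63 CPM (SD, n = 4). The ratio of *Igf2* to *Igfbp2* CPM lay between 4.95 and 8.95 in 8 libraries and was 1.94 in library 10.

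The fibrillar collagens and decorin varied with the same libraries but over a smaller range. *Col3a1* (chr1:45311538-45349706, plus strand) was at 9.14, 15.7, 4.95, 21.6 and 8.06 CPM in KO replicates 2, 4, 6, 8 and library 10, and at 4.34, 4.04, 8.6 and 6.06 CPM in WT replicates 1, 3, 9 and 11. KO replicates 4 and 8 stood above all others, KO replicate 2 was just above WT replicate 9, and the other KO libraries lay within the WT range. Its exons overlap those of Gm47302 on the same strand. *Col1a2* (chr6:4504814-4541544, plus strand) was at 21.9, 26, 14.8, 35.8 and 21.1 CPM in KO and 12.7, 12.2, 22 and 14.7 CPM in WT libraries, in the same order. Library 10 was here close to KO replicate 2 and WT replicate 9. *Col1a1* (chr11:94936224-94953042, plus strand), which encodes the partner chain of type I collagen, was at 17.3, 18.3, 7.69, 17.2 and 14.4 CPM in KO and 9.68, 9.12, 12.6 and 7.71 CPM in WT libraries. All KO libraries but replicate 6 were above the highest WT library for this gene, and KO replicate 6 was the lowest of the 9.

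*Dcn* (chr10:97479609-97518143, plus strand) was at 25.8, 31.2, 14.8, 47.7 and 16.3 CPM in KO and at 27.9, 20.9, 34.7 and 21.9 CPM in WT libraries. KO replicate 6 and library 10 lay below every WT library and KO replicate 8 above every one. Of the 10 genes it had the least difference between genotypes, with averages of 27.2 ± 13.3 CPM (SD, n = 5) over KO mice and 26.4 ± 6.36 CPM (SD, n = 4) over WT mice. Without library 10 its KO mean was 29.9 ± 13.7 CPM (SD, n = 4). KO and WT averages were 15 ± 4.32 and 9.78 ± 2.05 CPM for *Col1a1*, 23.9 ± 7.75 and 15.4 ± 4.53 CPM for *Col1a2*, and 11.9 ± 6.68 and 5.76 ± 2.09 CPM for *Col3a1* (SD, n = 5 and 4). Leaving out library 10 gave KO means of 15.1 ± 4.98, 24.6 ± 8.76 and 12.8 ± 7.31 CPM (SD, n = 4) for these 3 genes.

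The fold between the highest and the lowest library was 15.7 for *Slc13a4* and *Slc22a6*, 15.1 for *Ptgds*, 10 for *Igf2* and 8.94 for *Slc6a13*. It was 5.34 for *Col3a1*, 4.73 for *Igfbp2*, 3.21 for *Dcn*, 2.93 for *Col1a2* and 2.38 for *Col1a1*. The transporters, *Ptgds* and *Igf2* had the wide ranges and the type I collagen chains the narrow ones. The ratio of *Slc13a4* to *Slc22a6* CPM ran from 1.65 to 3.81 over the 9 libraries. The ratio of *Slc13a4* to *Col1a2* ran from 0.222 in KO replicate 6 to 1.44 in KO replicate 8. The ratio of *Col1a2* to *Col1a1* stayed between 1.27 and 2.08.

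**Figure D2:**
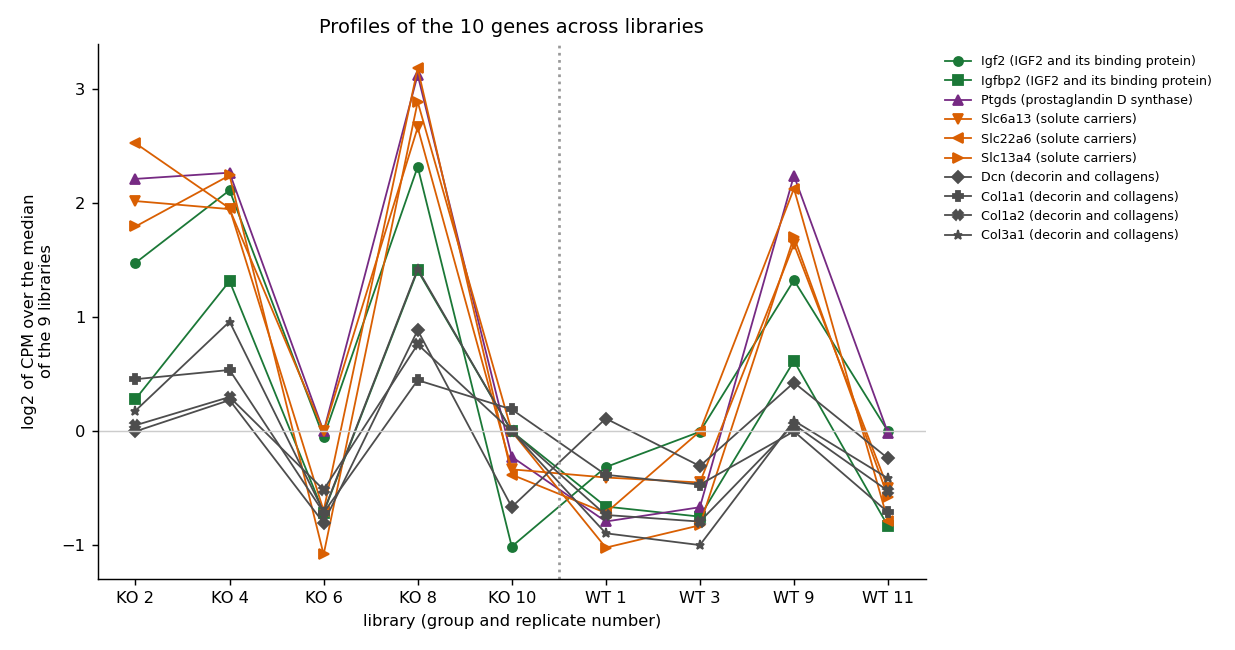
Log2 of each gene's CPM over its own median of the 9 libraries, by library, with solute carriers in orange, *Ptgds* in purple, *Igf2* and *Igfbp2* in green, and decorin and collagens in grey. All lines are at or above 0 at KO 2, 4 and 8 and at WT 9. The orange and purple lines and the green line of *Igf2* span the widest range, with folds of 8.94 to 15.7.

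The spread of these genes was large for their level. The SD of log2(CPM + 0.1) within groups was 1.56 for *Slc22a6*, 1.48 for *Slc13a4*, 1.46 for *Ptgds*, 1.20 for *Slc6a13* and 1.19 for *Igf2*, against a median of 0.16 over the 12072 genes averaging 5 CPM or more. By this SD they ranked 9, 10, 12, 23 and 24 among the 12072 genes. *Igfbp2* ranked 49 and *Col3a1* 72, so 7 of the 10 genes were within the first 100, while *Dcn* ranked 132, *Col1a1* 346 and *Col1a2* 350. The spread was in view when the genes were chosen, and these ranks only describe it.

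**Figure D3:**
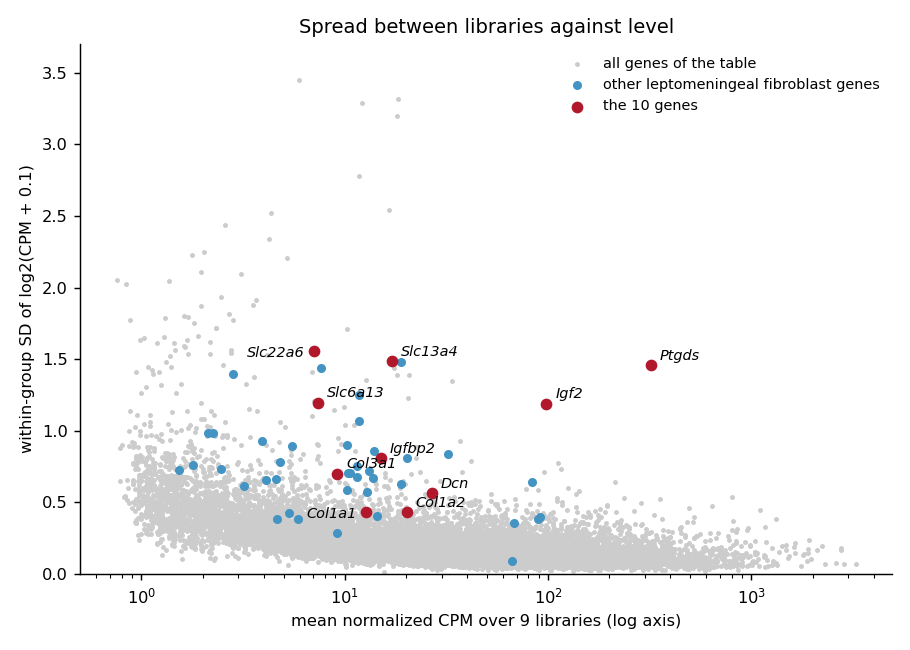
Within-group SD of log2(CPM + 0.1) against mean CPM (log axis) for all genes (grey), the 39 other leptomeningeal fibroblast genes (blue) and the 10 genes (red, named). *Slc22a6*, *Slc13a4* and *Ptgds* lie at 1.46 to 1.56, above the grey cloud of genes at their level.

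Per kilobase of exon, the mean level was 194 CPM for *Ptgds*, 17.1 for *Igf2*, 8.16 for *Igfbp2*, 4.59 for *Dcn*, 3.77 for *Slc13a4* and 2.54 for *Slc6a13*. It was 1.93 for *Col1a1*, 1.77 for *Slc22a6*, 1.62 for *Col1a2* and 0.933 for *Col3a1*. Compared within each library, *Ptgds* was above *Igf2* in 9 of 9 libraries, by a ratio of 5.02 to 15 per kilobase, and *Col1a2* above *Col3a1* in 9 of 9, by a ratio of 1.31 to 2.39. *Igf2* was above *Igfbp2* in 8 of 9 libraries. For the other neighbours in this order the gene with the higher mean was the higher one in 4 to 7 of 9 libraries, so their order changed between libraries.

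Which libraries were high was the same for most of the genes. For 8 of the 10 genes the 4 highest libraries were KO replicates 2, 4 and 8 and WT replicate 9. The exceptions were *Dcn*, where WT replicate 1 exceeded KO replicate 2, and *Col1a1*, where library 10 exceeded WT replicate 9. Of all 14351 genes, 247 (1.72%) had the same 4 highest libraries. This set of libraries was noticed in the values and is used only to describe them. KO replicate 8 was the highest library for 9 of the 10 genes and WT replicate 9 the highest WT library for 10 of 10. Library 10 was below WT replicate 9 for 9 of 10 genes, and KO replicate 6 for 10 of 10.

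After each group's mean was subtracted, Pearson's r between pairs of the 10 genes across the 9 libraries had a median of 0.88 over 45 pairs, from 0.64 for *Igf2* with *Col1a1* to 0.98 for *Ptgds* with *Slc6a13*. Spearman's rho had a median of 0.87. Since the libraries fall into 4 high and 5 low ones, these values mainly restate that separation. They are a description without a p-value.

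KO against WT, 9 of the 10 genes had a higher mean log2 value in KO mice, but the libraries of the genotypes overlapped for 10 of 10, while 3.41% of all genes showed no overlap. The median log2 difference of the 10 genes was 0.88, from -0.06 for *Dcn* to 1.33 for *Slc13a4*, beside a median of 0.00 over all genes. It was 1.28 for *Ptgds*, 1.16 for *Slc6a13*, 1.13 for *Slc22a6*, 0.91 for *Col3a1*, 0.86 for *Igfbp2*, 0.72 for *Igf2*, 0.61 for *Col1a2* and 0.57 for *Col1a1*. These differences are on the log2(CPM + 0.1) scale. With library 10 left out the median was 1.11, from 0.09 for *Dcn* to 1.71 for *Ptgds*, and all 10 were above 0. The others were then 1.63 for *Slc13a4*, 1.55 for *Slc6a13* and *Slc22a6*, 1.21 for *Igf2* and 0.97 for *Igfbp2*, with *Col3a1* between these last, and 0.64 for *Col1a2* and 0.57 for *Col1a1*.

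No limma p-value or count is given for the 10 genes, because they were chosen with this contrast in view. As background for the other lists, 0.286% of the 14351 genes passed the limma threshold, which was 0.05 after adjustment. At the same limit without adjustment the share was 6.5%. When library 10 was left out, the shares were 0.606% with adjustment and 10.5% without. Leaving out KO replicate 8 lowered the median difference to 0.64, and leaving out KO replicate 6 raised it to 1.16. For *Ptgds* the difference ran from 0.87 without KO replicate 8 to 1.96 without WT replicate 9.

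Most other genes of the same cells, listed by their known expression, showed the same libraries high. The list was chosen with earlier results of these data known, so its counts are a description and not a separate test. Of 40 listed leptomeningeal and perivascular fibroblast genes, 39 were measured. None passed the adjusted threshold in either direction in limma, beside 0.286% of all genes. An unadjusted p under 0.05 was found for 5, all higher in KO mice, beside 6.5% of all genes. The log2 difference was above 0 for 36 of 39, with a median of 0.54, beside a median of 0.00 over all genes. Without library 10 there were again 0 adjusted and 20 unadjusted, beside 0.606% and 10.5% of all genes, and the median was 0.71. For 28 of the 39 genes the 4 highest libraries were again KO replicates 2, 4 and 8 and WT replicate 9, beside 1.72% of all genes. Their summed CPM was 854, 920, 477, 1280 and 502 in KO replicates 2, 4, 6, 8 and library 10, and 550, 528, 815 and 517 in WT replicates 1, 3, 9 and 11.

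Within that list the highest differences were those of *Osr1*, a transcription factor of connective tissue, and *Nupr1*, a stress-response gene. Their log2 differences were 1.36 (standard error 0.74, adjusted p = 0.805 from limma) and 1.26 (standard error 0.55, adjusted p = 0.757 from limma). *Osr1* was at 5.54, 3.3, 1.1, 9.38 and 0.643 CPM in KO replicates 2, 4, 6, 8 and library 10 and at 0.543, 0.622, 3.6 and 0.689 CPM in WT replicates 1, 3, 9 and 11, which is the pattern of the transporters. At the other end were *Islr*, a secreted immunoglobulin-domain protein of stromal cells, at -0.11 (adjusted p = 0.966 from limma), and *Vcan*, at -0.04 (adjusted p = 0.932 from limma). *Vcan*, a proteoglycan that oligodendrocyte precursors also make, did not follow the set, at 60.8 to 74.5 CPM over all 9 libraries. Without library 10 the differences were 1.83 for *Osr1*, 1.43 for *Nupr1*, 0.07 for *Islr* and -0.02 for *Vcan*.

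Among 27 other collagen chains and collagen-processing genes, none passed the adjusted threshold in limma, beside 0.286% of all genes. An unadjusted p under 0.05 was found for 5, all higher in KO mice, beside 6.5% of all genes. The median difference was 0.15. *Col5a1*, a chain of type V collagen, had the highest difference, 0.98 (standard error 0.35, adjusted p = 0.636 from limma). It spanned 6.23 to 20 CPM over the KO libraries, and 3.73 to 10.3 CPM over the WT ones. *Loxl2*, which cross-links collagen, followed at 0.80 (standard error 0.36, adjusted p = 0.759 from limma). *Col15a1*, a chain of vessel basement membrane, was lowest at -0.20 (standard error 0.12), and *Plod2*, a lysyl hydroxylase, was at -0.08 (adjusted p = 0.938 from limma). In 7 of the 27 genes, beside 1.72% of all genes, the 4 highest libraries were the same as for *Slc13a4*. *Col15a1* and *Plod2* were not among the 7. Without library 10 the list's median was 0.17, and the differences were 1.09 for *Col5a1*, 0.96 for *Loxl2*, -0.15 for *Col15a1* and 0.00 for *Plod2*.

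Of 16 listed genes of the insulin-like growth factor system, 13 were measured, with a median difference of 0.05. None passed in limma, at an unadjusted p under 0.05 either, beside 0.286% and 6.5% of all genes. *Igfbp6* and *Igfbp4*, other binding proteins, had the highest differences, 0.41 (adjusted p = 0.88 from limma) and 0.36 (adjusted p = 0.857 from limma). *Igf2bp2*, an RNA-binding protein, and *Igfbp5* had the lowest, -0.18 (adjusted p = 0.958 from limma) and -0.16 (adjusted p = 0.876 from limma). *Igfbp5* spanned 232 to 362 CPM over the KO libraries, and 264 to 378 CPM over the WT ones. For 0 of the 13 genes, beside 1.72% of all genes, were the 4 highest libraries those of *Igf2*. At that share a list this short would hold few such genes, so nothing is read from the count. The mean log2 deviation of the list from the 9-library mean was highest in those 4 libraries. It was 0.12, 0.08 and 0.38 in KO replicates 2, 4 and 8 and 0.07 in WT replicate 9, with 0.02 in WT replicate 1 next. Leaving out library 10 gave a median of 0.07 and differences of 0.50 for *Igfbp6*, 0.35 for *Igfbp4*, -0.31 for *Igf2bp2* and -0.09 for *Igfbp5*.

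Of 17 listed prostaglandin genes, 16 were measured, with a median difference of 0.05. In limma 0 passed the threshold and 0 had an unadjusted p under 0.05, beside 0.286% and 6.5% of all genes. *Ptgs2*, the inducible cyclooxygenase, was at 0.77 (standard error 0.47, adjusted p = 0.828 from limma) and *Ptgis*, prostacyclin synthase, at 0.76 (standard error 0.41, adjusted p = 0.803 from limma). *Hpgds*, the prostaglandin D synthase of microglia and mast cells, was at -0.17 (adjusted p = 0.862 from limma), and *Tbxas1*, thromboxane synthase, at -0.16 (adjusted p = 0.91 from limma). *Hpgds* ran from 10.8 to 16.3 CPM over all libraries, a fold of 1.51, beside 15.1 for *Ptgds*. With library 10 left out the median was 0.04, and the differences were 0.75 for *Ptgs2*, 0.66 for *Ptgis*, -0.12 for *Hpgds* and -0.19 for *Tbxas1*.

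Of 20 other transporters of the brain barriers, 18 were measured and none passed in limma, beside 0.286% of all genes. An unadjusted p under 0.05 was found for 2, beside 6.5% of all genes, and the median difference was 0.06. *Slc6a20a*, a proline transporter, and *Slc6a12*, the betaine and GABA transporter, had the highest differences, 1.07 (standard error 0.64, adjusted p = 0.828 from limma) and 1.04 (standard error 0.98, adjusted p = 0.879 from limma). *Slc6a12*, which neighbours *Slc6a13* in the transporter family, was at 7.47, 5.54, 0.183, 10.2 and 1.04 CPM in KO replicates 2, 4, 6, 8 and library 10 and at 0.543, 1.04, 5 and 0.689 CPM in WT replicates 1, 3, 9 and 11. The same 4 libraries were high. The difference of *Slc6a12* ran from 0.56 without KO replicate 8 to 1.85 without KO replicate 6, and that of *Slc6a20a* from 0.70 without KO replicate 8 to 1.53 without WT replicate 9. *Slc6a11*, a GABA transporter of astrocytes, was lowest, at -0.27 (standard error 0.17). When library 10 was left out the median of the list was 0.09, and the differences were 1.44 for *Slc6a20a*, 1.35 for *Slc6a12* and -0.08 for *Slc6a11*.

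Markers of other cell types were set beside the 10 genes. Markers of the labelled tissue were present in all libraries. The summed CPM of the hypothalamic neuron genes, 13 of 13 measured, was 803 to 991 over KO libraries and 738 to 795 over WT ones. These genes were led by *Pmch* at 199 to 334 CPM, *Avp* and *Sst*. Of them only *Avp*, vasopressin, passed the threshold in limma, at 189 to 255 CPM over KO and 96 to 123 CPM over WT libraries (log2 difference 0.90, standard error 0.10, adjusted p = 0.0027; 0.82 without library 10), and its order of libraries was not that of the 10 genes. The 8 astrocyte markers, led by *Slc1a2*, *Slc1a3* and *Aldoc*, summed to 5297 to 5563 CPM over KO libraries, and 5006 to 5536 CPM over WT ones. The 10 endothelial markers, led by *Flt1*, *Kdr* and *Pecam1*, summed to 204 to 234 and 194 to 215 CPM. The 9 measured of 15 choroid plexus markers, led by *Enpp2*, *Prlr* and *Clic6*, summed to 254 to 292 and 263 to 272 CPM, a sum made up mostly of *Enpp2* and *Prlr*. Only 1 of these 9 genes, *Kl*, named after its values were seen, had the same 4 highest libraries as most of the 10 genes. *Kl* was at 18.5, 16.7, 12.3, 16.6 and 10.4 CPM in KO replicates 2, 4, 6, 8 and library 10. It was at 15, 15.1, 20.2 and 10.6 CPM in WT replicates 1, 3, 9 and 11. Choroid plexus is another known source of *Igf2*, and its part in the *Igf2* levels was not tested. The 8 microglial markers, with *Csf1r* and *Sall1* among the most abundant, summed to 223 to 266 and 246 to 310 CPM, and *Alas2*, the 1 blood gene measured of 5 listed, was at 9.79 to 13.4 and 7.58 to 10.3 CPM. The 8 ependymal markers, led by *Foxj1*, *Ak7* and *Rarres2*, summed to 43.8 to 64 and 43.5 to 56.1 CPM. The 7 tanycyte markers, led by *Vim*, *Col23a1* and *Dio2*, summed to 90.2 to 154 and 96 to 115 CPM, with library 10 highest for both lists. The highest 4 libraries by sum were not those of the 10 genes for any of these lists, although KO replicates 2, 4 and 8 were the highest for endothelium, within a fold of 1.21. By mean log2 deviation from the 9-library mean, the endothelial list was highest in the same 4 libraries as most of the 10 genes. The deviation was 0.08, 0.15 and 0.09 in KO replicates 2, 4 and 8 and 0.07 in WT replicate 9. The next was 0.01 in WT replicate 1.

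In 2 marker lists the sums came closer to the 10 genes. The 3 measured of 8 border macrophage markers, *Mrc1*, *F13a1* and *Cd163*, summed to 9.92, 14.5, 6.59, 15.9 and 9.4 CPM in KO replicates 2, 4, 6, 8 and library 10 and to 8.41, 8.19, 10.6 and 5.79 CPM in WT replicates 1, 3, 9 and 11. The 4 highest were again KO replicates 2, 4 and 8 and WT replicate 9. The 11 mural cell markers, led by *Rgs5*, *Notch3* and *Vtn*, summed to 257 to 357 CPM over KO libraries, and 259 to 291 CPM over WT ones. Among them *Acta2*, smooth muscle actin, was at 25, 21.4, 10.4, 29.9 and 8.46 CPM in KO replicates 2, 4, 6, 8 and library 10 and at 9.95, 5.6, 8.2 and 8.13 CPM in WT replicates 1, 3, 9 and 11. *Acta2*, picked after its values were seen, was high in KO replicates 2, 4 and 8 but not in WT replicate 9. Its log2 difference was 1.11 (standard error 0.34, adjusted p = 0.506 from limma), and without library 10 it was 1.36 (adjusted p = 0.0207 from limma). Of the 11 mural genes 0 passed with library 10 and 1 without it, beside 0.286% and 0.606% of all genes. For 2 of the 11, beside 1.72% of all genes, WT replicate 9 and KO replicates 2, 4 and 8 were the 4 highest. *Vtn* was 1 of the 2, at 57.7 CPM in WT replicate 9. The part that these cells had in the levels of the 10 genes was not tested.

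**Figure D4:**
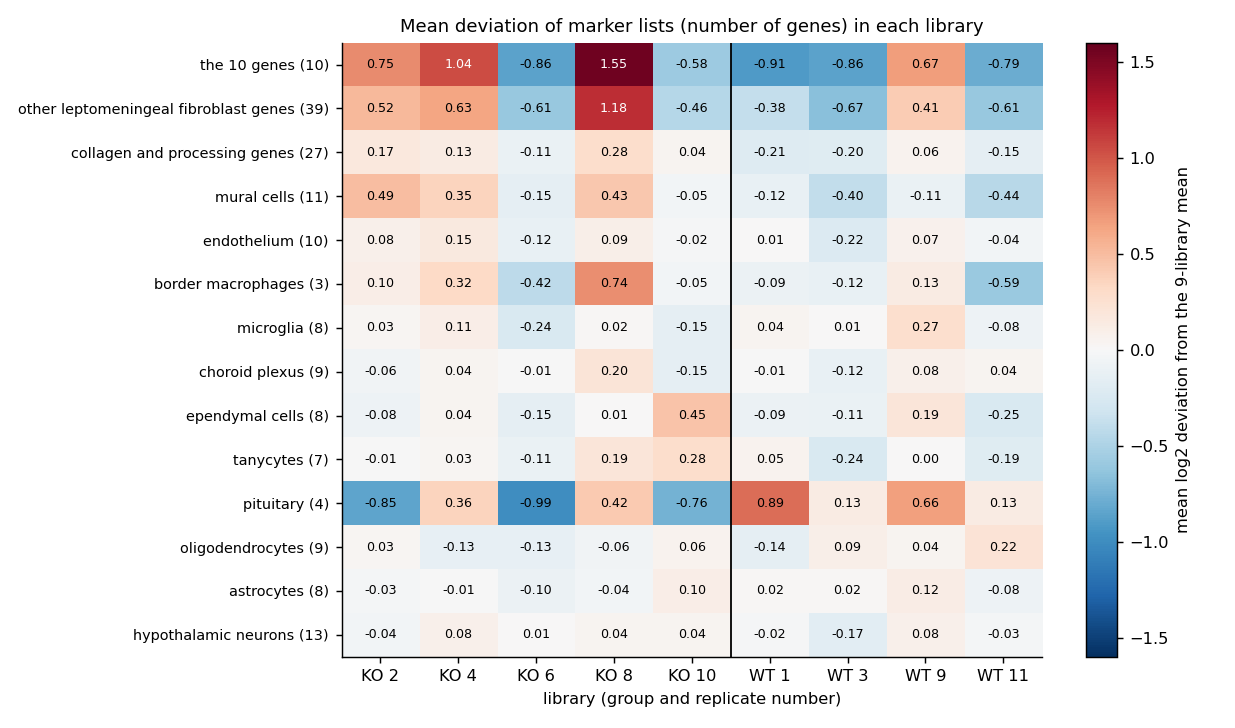
Mean deviation of log2(CPM + 0.1) from the 9-library mean for the 10 genes and for 13 marker lists (number of measured genes in brackets), by library. The other fibroblast genes repeat the row of the 10 genes, from 1.18 in KO 8 to -0.67 in WT 3, while astrocyte, oligodendrocyte and neuron rows stay near 0.

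Among the 12062 other genes averaging 5 CPM or more, the 10 whose within-group values were most like the mean of the 10 genes across the 9 libraries had r of 0.96 to 0.99. They were *Aebp1*, *Ranbp3l*, *Aldh1a2*, *Slc6a20a*, *Rfesd*, *Mrc2*, *Bmp6*, *Cnih3*, *Msrb1* and *Fmod*. Without the 2 libraries farthest from the median, KO replicates 8 and 4, their r was between 0.94 and 0.99. Of the 10 genes, 5 were in the fibroblast list and *Slc6a20a* in the transporter list. *Aebp1* was at 44.7, 50.1, 15.2, 76.9 and 22.9 CPM in KO replicates 2, 4, 6, 8 and library 10 and at 16, 12.7, 37.3 and 15 CPM in WT replicates 1, 3, 9 and 11. *Aldh1a2*, the enzyme that makes retinoic acid in the meninges, spanned 4.95 to 28.5 CPM over KO libraries, and 3.99 to 17.3 CPM over WT ones, and *Fmod*, a collagen-binding proteoglycan, from 3.86 to 52.7 and 4.52 to 27 CPM. *Rfesd*, *Cnih3* and *Msrb1* had a high r with a small fold range, 1.3, 1.53 and 2.79.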

How the data were processed

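Hypothalamus RNA of 9 mice, 5 in the KO and 4 in the WT group, was sequenced. According to the labels and the study's methods, the authors trimmed reads with Trimmomatic 0.38, aligned them to GRCm38.p6 with STAR 2.5.1a, quantified genes with RSEM 1.3.0 on Ensembl release 98, removed genes without a CPM of at least 1 in at least 5 samples, and scaled libraries by the TMM method in edgeR. The resulting CPM per gene and library is the deposited signal. Sums per library ran from 988036 to 1026563. RSEM divides reads between overlapping or similar genes. The authors' deposited comparison table was used only for gene symbols, and its fold changes, p-values and scores were not used. A further 1 column could be tied to none of the samples and was not used.

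Genotype was the single term of a limma fit (limma 3.58.1, R 4.3.3, lmFit and eBayes with trend) to log2(CPM + 0.1). P-values were adjusted by Benjamini-Hochberg across the 14351 genes, and a gene passed under 0.05. The study fitted limma-voom, which needs counts. Read totals are estimates from low values, of which (2.5 CPM or less) 81% to 86.4% in a library lay within 0.03 reads of a whole read. Positions and exon lengths came from GENCODE mouse release 21 on GRCm38, and promoter windows from RefSeq for 8 of the 10 genes. The members and the gene lists were chosen with earlier results of these data known. Named were the 10 genes, *Clic1*, listed genes past the threshold, the 2 highest and 2 lowest differences of the fibroblast, collagen, growth factor, prostaglandin and transporter lists, the 3 most abundant genes of other cell-type lists, and the 10 genes most like the members. Some genes that this rule names are not reported here. *Acta2* and *Kl* were picked after their values were seen. The limma p-values set the difference between genotypes against the spread between these mice, moderated over all genes. Alternatives tried were other pseudocounts, scalings and filters, array weights, library 10 as WT, and each library left out.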

Additional observations from a re-analysis of the deposited data

Results flagged for a closer look

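The highest WT value stood apart from the other WT values in 6 of the 22 groups of values examined (the 10 genes and *Clic1*, each in KO and in WT). Chance gives such a value in about 1 in 20 groups, but the 10 genes were chosen with their spread between libraries in view, so nothing is read from the number. All 6 were WT replicate 9. This library had 506 CPM of *Ptgds*, 117 CPM of *Igf2*, 18.4 CPM of *Igfbp2*, 9.7 CPM of *Slc6a13*, 10.4 CPM of *Slc22a6* and 22.7 CPM of *Slc13a4*. The other WT libraries were at 61.9 to 106 CPM for *Ptgds*, 37.6 to 46.7 CPM for *Igf2* and 3.44 to 4.68 CPM for *Slc13a4*. The 6 genes share their libraries, so these are not independent of one another.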

How the results depend on the processing

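The 41 genes past the threshold over the whole table became 27 among genes averaging 5 CPM or more, 5 with replicate 10 as WT and 135 with limma array weights, and 18 (without WT replicate 1) to 87 (without KO replicate 10) as each replicate was left out. Of the 113 measured genes of the 5 lists, 0 passed, and this stayed 0 as each replicate was left out. With array weights 3 passed, *Slc7a11* (0.58, adjusted p = 0.0253 from limma), *Thbd* (1.18, 0.0419) and *Col5a1* (1.21, 0.0429), all higher in KO mice. The median log2 difference of the 10 members was 0.64 to 1.16 as each replicate was left out and 1.18 with replicate 10 as WT. As each replicate was left out, *Igf2* (0.72) ran from 0.38 to 1.21, *Slc22a6* (1.13) from 0.68 to 1.77 and *Slc13a4* (1.33) from 0.91 to 1.95. *Dcn* (-0.06) turned to 0.12, 0.09 and 0.08 without KO replicate 6, KO replicate 10 and WT replicate 9, and to 0.22 with replicate 10 as WT. Of 314 comparisons of 19 listed genes, 302 kept direction and side of the threshold. *Islr* turned to 0.24 with replicate 10 as WT and 0.13 with array weights (-0.35 to 0.11 as replicates were left out), and *Plod2* to 0.07 and 0.01. *Slc6a11* turned to 0.12 with replicate 10 as WT. Leaving out replicates gave -0.09 to 0.01 for *Vcan* and -0.40 to 0.28 for *Igf2bp2*. The cause was not tested. *Clic1* stayed between -1.94 and -1.62 as each replicate was left out, with adjusted p from 0.00494 to 0.0893 in limma, and was -1.51 (adjusted p = 0.501) with replicate 10 as WT. It did not pass without WT replicates 1, 3 and 9, at -1.73, -1.80 and -1.74. The median r between members was 0.92 without library 10. No paired analysis was possible because the groups share no replicate numbers. The lowest transporter values rest on few reads.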

Other observations

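Of 7 listed pituitary genes, 4 were measured, with *Tshb*, *Cga* and *Pitx1* the most abundant, and they varied between libraries. Their sum was 6.79 to 19.5 CPM over KO libraries, and 14.8 to 32 CPM over WT ones. *Tshb*, the beta chain of thyrotropin, was at 3.35, 7.12, 4.21, 7.04 and 3.91 CPM in KO replicates 2, 4, 6, 8 and library 10 and at 16.1, 7.98, 9.9 and 10.9 CPM in WT replicates 1, 3, 9 and 11. All KO libraries lay below all WT libraries, while 3.41% of all genes showed no overlap in 1 direction or the other. The log2 difference of *Tshb* was -1.14 (standard error 0.26, adjusted p = 0.192 from limma, and -1.06 without library 10), so it did not pass the threshold over all genes. *Cga*, the common alpha chain of the pituitary glycoprotein hormones, was at 0.876, 8.44, 0.366, 4.67 and 0.735 CPM in KO and at 10.1, 2.69, 7.38 and 2.07 CPM in WT libraries, in the same order. KO replicates 4 and 8 and WT replicate 9 were high for *Cga* as they were for the 10 genes, and the within-group r with the mean of the 10 genes was 0.75 for *Cga*, 0.74 for *Pitx1* and 0.40 for *Tshb*. KO replicate 2, which was high for *Slc22a6* at 13.7 CPM, was low for *Cga* at 0.876 CPM, and WT replicate 1, which was low for *Slc22a6* at 1.45 CPM, had the highest *Cga*.

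Of the 12062 genes ranked by likeness, 63 had an r of at least 0.9 with the mean of the 10 members, and 19 of these were in a list. The other genes were not in any list, and *Mrc2*, a collagen receptor of fibroblasts, was among them with 7.33 to 23.1 CPM over KO libraries, and 9.64 to 14.9 CPM over WT ones.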
